A study of Mus musculus with 6 samples.

Results

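Transcripts of 20 mouse semaphorins, 9 plexins and 2 neuropilins, with 3 antisense RNAs of the Plxna4 locus, were followed in microglia, the resident macrophages of the brain. These 34 of 48005 gene entries are all entries of the counts table whose symbol starts with Sema or Plxn, plus Nrp1 and Nrp2. Members were chosen by symbol and by no measured value, but the family was picked with earlier results of the same comparison known, so the counts below describe it. In 2 entries the gene is joined with a microRNA that lies within it (Sema4a with Mir7011, Nrp1 with Mir1903), and their counts belong to the joined entry.

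The EV-treated group was 3 samples (A, B, C) of cultured CD1 microglia given extracellular vesicles, small membrane-bound particles shed by cells, which had been spun down from primary neural stem cells of the CD1 subventricular zone. The control group was 3 CD1 microglia samples (A, B, C) given the control treatment, whose make-up, like the vesicle dose and the time of exposure, is not stated in the labels. PolyA-selected RNA was sequenced and counted per exon bin, with 133112063 to 142805303 counts per EV-treated library and 109744701 to 162544804 per control library. The labels do not tell if replicates were different animals or cultures, and the p-values below thus cover sample-to-sample spread that could be technical. In bulk RNA of this kind, fewer cells of a type and less RNA per cell cannot be told apart.

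Semaphorins are secreted or membrane-bound ligands first known for turning growing axons away. Plexins are their receptors and act on small GTPases inside the cell through a GAP domain, and neuropilins are coreceptors that bind secreted class 3 semaphorins and also VEGF. In immune cells, members such as Sema4d, Sema4a and Sema7a act on leukocyte activation, and Sema6d can signal through a complex of Plxna1 with Trem2 and Tyrobp, receptor proteins that microglia share with other myeloid cells.

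Of the 34 members, 30 had enough counts to be tested. EV-treated microglia had higher RNA of 13 and lower RNA of 7 of them (edgeR quasi-likelihood test, adjusted p under 0.05 over all 16605 entries tested), and 10 did not pass. These are 43.3% and 23.3% of the tested members, beside 33% of all tested entries called higher and 33.5% called lower, a background so wide that the members' counts are given as a description. The median log2 fold change was 0.53 over the tested members and -0.02 over all entries. Sema6d, Sema7a and Sema3c had the largest rises, and Plxnb3, Nrp1 and Sema4c the deepest falls.

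The log2 ratio of Y-linked counts to Xist counts was -4.86, -4.90 and -5.51 in EV-treated A, B and C, against -1.35, -1.65 and -3.86 in control A, B and C, so the groups did not overlap in it and control C lay between the other samples. With that ratio as a covariate (called the sex-linked covariate below), some calls were lost or gained, as given beside the genes. Because the groups did not overlap in the ratio, that fit cannot well separate the ratio from treatment. Some calls were lost in it although the fold change was no smaller, and why they were lost was not tested. Summed over 12 microglia markers, EV-treated libraries had 4644 to 4788 CPM (counts brought to the usual common total by TMM) and control libraries 7381 to 9077 CPM, with 9 of 12 lower in all EV-treated libraries, so the labelled cell type was present in both groups. Astrocyte markers summed to 94.9 to 131 CPM in EV-treated and 14.9 to 20.4 CPM in control libraries, with Gjb6 at 0 in every library. Most of that sum was Slc1a2 in EV-treated libraries (55.7 to 90.6 CPM, against 0.0315 to 0.186 CPM in control libraries), while Aldh1l1 was lower, with 1.04 to 2.29 CPM in EV-treated and 10.6 to 15.3 CPM in control libraries. Oligodendrocyte lineage markers summed to 30.6 to 43.8 CPM in EV-treated and 213 to 440 CPM in control libraries, mostly Cspg4. Of these 8 markers, 3 were lower and 1, Pdgfra, was higher in all EV-treated libraries. Pdgfra had 2.74 to 3.26 CPM in EV-treated and 0.244 to 0.296 CPM in control libraries. Olig1 was near the floor, at 0 in the EV-treated libraries and 0.0228 to 0.0424 CPM in control libraries. Neural stem cell markers summed to 6.05 to 8.07 CPM in EV-treated and 46.5 to 83.3 CPM in control libraries. Nes was the largest of them in control libraries (1.88 to 3.19 CPM in EV-treated and 45.7 to 82.1 CPM in control libraries) and Egfr in EV-treated libraries (2.63 to 3.63 CPM in EV-treated and 0.486 to 0.575 CPM in control libraries). Endothelial and mural markers summed to 19.9 to 28.8 CPM in EV-treated and 71.9 to 171 CPM in control libraries, mostly Flt1 (13.3 to 18.8 CPM in EV-treated and 71.1 to 169.8 CPM in control libraries), while Pecam1, Cdh5 and Pdgfrb were higher in every EV-treated library. Fibroblast markers summed to 14.9 to 20.5 CPM in EV-treated and 15.1 to 40.9 CPM in control libraries, neuron markers to 2.39 to 2.73 CPM in EV-treated and 0.607 to 0.772 CPM in control libraries, and markers of other macrophages and neutrophils to 36.0 to 44.3 CPM in EV-treated and 55.1 to 91.9 CPM in control libraries, with S100a9 at 0 throughout. Of these last markers, Mrc1 had 10.9 to 11.3 CPM in EV-treated and 52.2 to 89.7 CPM in control libraries, and S100a8 had 23.9 to 33.1 CPM in EV-treated and 1.47 to 3.19 CPM in control libraries. The part of other cell types in the members' values was not tested.

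**Figure D1:**
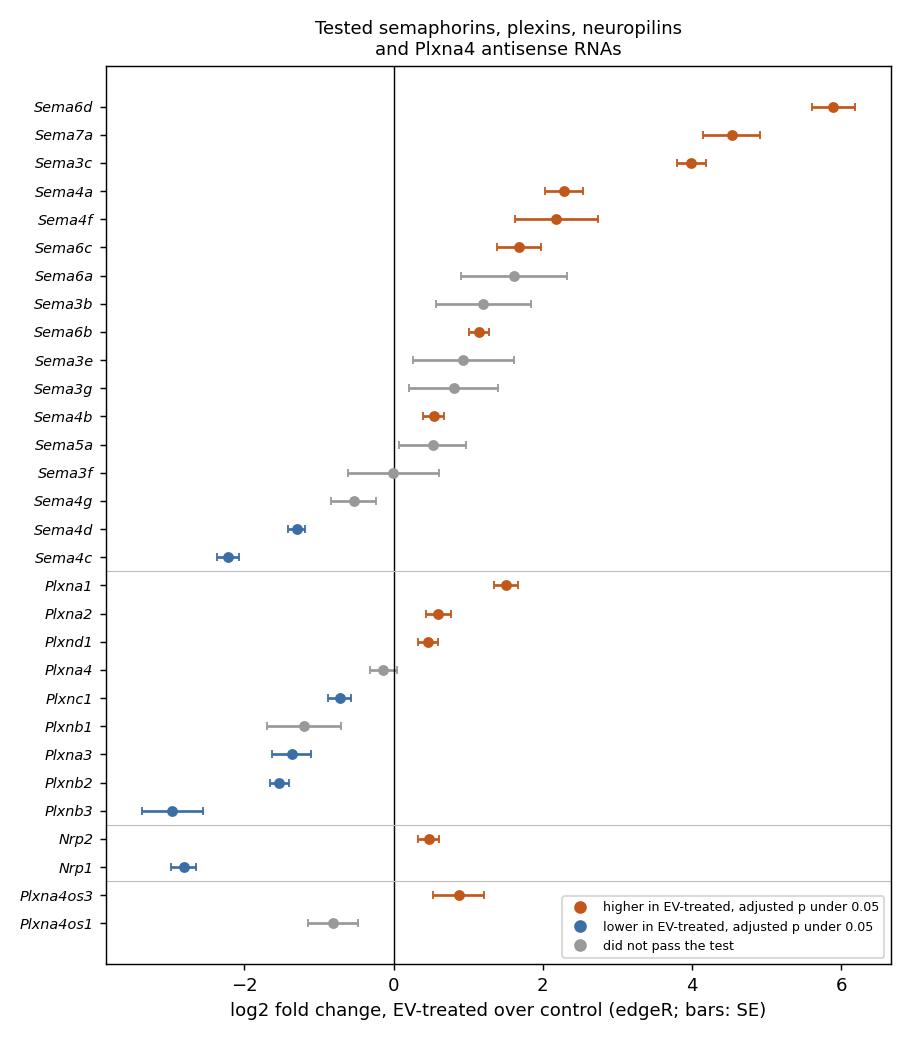
Log2 fold change of each of the 30 tested members, EV-treated over control (horizontal axis), grouped from top to bottom into semaphorins, plexins, neuropilins and antisense RNAs; points are edgeR estimates and bars their SE. Orange points passed the test as higher and blue points as lower in EV-treated microglia; Sema6d stands at 5.90 and Plxnb3 at -2.97.

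Among the secreted class 3 semaphorins, which act through neuropilins and class A plexins, Sema3c stood out. Sema3c (chr5:17574281-17730268, GRCm38), a ligand of Nrp1 and Nrp2, had 7.20, 6.28 and 6.59 CPM in EV-treated A, B and C, against 0.493, 0.433 and 0.340 CPM in control A, B and C. All EV-treated libraries lay above all control libraries, by 15.8 times on average (log2 fold change 3.99 ± 0.20, SE, adjusted p = 1.26e-07). The other class 3 members were scarce. Sema3b, Sema3e, Sema3f and Sema3g ranged from 0.0440 to 1.20 CPM in EV-treated and from 0.0380 to 0.615 CPM in control libraries, their groups overlapped, and none passed the test. Without control C, Sema3b (2.11, adjusted p = 0.0172) and Sema3g (1.66, adjusted p = 0.0493) were called higher. Sema3a, the classic axon repellent, had 0 to 3 counts in a library and Sema3d had 0 to 6, which is too low to judge.

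The membrane-bound class 4 semaphorins, which bind mainly class B plexins, moved in both directions. Sema4d (CD100), a ligand of Plxnb1 and Plxnb2 that T cells and myeloid cells carry, was the most abundant semaphorin per length in both groups. It had 207, 191 and 220 CPM in EV-treated A, B and C, against 480, 517 and 527 CPM in control A, B and C. Every EV-treated library was below every control library, by 2.47 times on average, and the log2 fold change was -1.30 ± 0.11 (SE, adjusted p = 4.74e-06).

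Sema4c (chr1:36548639-36558349, GRCm38), a ligand of Plxnb2, had 10.03, 8.35 and 11.9 CPM in EV-treated A, B and C, against 47.7, 41.2 and 52.4 CPM in control A, B and C. The groups did not overlap, and Sema4c fell by 2.22 ± 0.15 on the log2 scale (SE, adjusted p = 1.13e-06). Sema4g, another ligand of Plxnb2, had 5.09, 4.09 and 7.77 CPM in EV-treated A, B and C, against 7.38, 5.38 and 11.8 CPM in control A, B and C. Its groups overlapped, and it did not pass the test (log2 fold change -0.53 ± 0.30, SE, adjusted p = 0.147). Without EV-treated C it was -0.84 (adjusted p = 0.0408) and without control B -0.78 (adjusted p = 0.0321). It was -0.19 without control C (adjusted p = 0.549) and -1.63 with the sex-linked covariate (adjusted p = 0.00910).

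Sema4a, a class 4 semaphorin known for acting on T cells, had 16.2, 16.7 and 21.3 CPM in EV-treated A, B and C, against 2.70, 2.93 and 5.43 CPM in control A, B and C. The lowest EV-treated library was well above the highest control library, control C, and Sema4a rose by 2.29 ± 0.26 on the log2 scale (SE, adjusted p = 3.78e-05), or by 1.20 with the sex-linked covariate (adjusted p = 0.00299). Sema4b had 16.0, 12.2 and 16.0 CPM in EV-treated A, B and C, against 10.5, 10.6 and 9.40 CPM in control A, B and C. The groups were close but did not overlap (log2 fold change 0.53 ± 0.14, SE, adjusted p = 0.00654), and the test was not passed with library totals alone as the scaling (0.17, adjusted p = 0.326) or with the sex-linked covariate (0.67, adjusted p = 0.0857). Sema4f was rarer, with 0.323 to 0.756 CPM in EV-treated and 0.0394 to 0.196 CPM in control libraries, and was called higher (log2 fold change 2.18 ± 0.55, SE, adjusted p = 0.00606). With the sex-linked covariate Sema4f did not pass (1.10, adjusted p = 0.407).

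Class 5, 6 and 7 semaphorins rose or were too scarce to tell. Sema6d (chr2:124089969-124667770, GRCm38), a transmembrane ligand of Plxna1, had 43.9, 38.4 and 48.8 CPM in EV-treated A, B and C, against 0.539, 0.512 and 1.10 CPM in control A, B and C. All EV-treated libraries held ample counts of this gene, and the control libraries were close to empty. Its mean was 61.0 times higher in EV-treated microglia (log2 fold change 5.90 ± 0.29, SE, adjusted p = 1.28e-07; with the sex-linked covariate 4.79).

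Along Sema6d, the counts did not start at the first annotated exon. The 9 bins between 124089969 and 124507701 held 3 counts over the EV-treated libraries and 0 over the control libraries. The next 4 bins, from 124610106 to 124611060, held 262, 248 and 386 counts in EV-treated A, B and C, against 3, 0 and 3 counts in control A, B and C, and the 27 bins from 124653581 on held 5172, 4120 and 5867 counts in EV-treated A, B and C, against 68, 65 and 204 counts in control A, B and C. So the reads of the EV-treated libraries began within the gene, downstream of the first RefSeq start at 124089969. Another RefSeq start, at 124653581, is the first base of the 27 bins that held most of the counts. The RefSeq windows at hand do not cover 124610106, where the counts begin, and no Sema6d promoter is shown. Which start the reads came from was not tested.

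Sema6b, a ligand of class A plexins, had 17.6, 16.2 and 21.4 CPM in EV-treated A, B and C, against 8.57, 8.71 and 7.78 CPM in control A, B and C. All EV-treated libraries were above all control libraries (log2 fold change 1.14 ± 0.13, SE, adjusted p = 4.47e-05). Sema6c had 5.66, 3.89 and 6.48 CPM in EV-treated A, B and C, against 2.25, 1.001 and 1.73 CPM in control A, B and C. It rose without overlap by 1.68 ± 0.30 on the log2 scale (SE, adjusted p = 7.04e-04), and with the sex-linked covariate it did not pass (1.56, adjusted p = 0.0740). Sema6a and Sema5a ranged from 0.0468 to 0.352 CPM in EV-treated and from 0.0380 to 0.260 CPM in control libraries and did not pass. Without EV-treated C, Sema6a was called higher (2.05, adjusted p = 0.0145), and without EV-treated B it was 0.72 (adjusted p = 0.390). Sema5b, with 0 to 9 counts in a library, was too low to judge.

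Sema7a (chr9:57940112-57962865, GRCm38), the GPI-anchored semaphorin that binds Plxnc1 and beta-1 integrins, had 5.47, 5.03 and 7.36 CPM in EV-treated A, B and C, against 0.0987, 0.276 and 0.377 CPM in control A, B and C. The highest control library, control C, was far below the lowest EV-treated library, and the mean was 23.8 times higher in EV-treated microglia. The log2 fold change was 4.53 ± 0.38 (SE, adjusted p = 4.77e-06) and 3.26 with the sex-linked covariate (adjusted p = 0.00178).

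Among the plexins, Plxna1, Plxna2 and Plxnd1 rose and Plxna3, Plxnb2, Plxnb3 and Plxnc1 fell. Plxna1 (chr6:89316314-89362620, GRCm38), the receptor of Sema6d and of neuropilin-bound class 3 semaphorins, had 1118, 961 and 1448 CPM in EV-treated A, B and C, against 415, 443 and 387 CPM in control A, B and C. EV-treated C was the highest, and no EV-treated library reached down to the controls. The log2 fold change was 1.503 ± 0.162 (SE, adjusted p = 2.56e-05). Exons of Gm26811, a gene model on the opposite strand, overlap 10 of its 45 bins, which held 34.5% of its counts, and without a stated strand setting those reads cannot be told apart. On bins free of other genes the log2 fold change of Plxna1 was 1.57 (adjusted p = 1.73e-05).

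Plxna2, a receptor for class 6 and neuropilin-bound class 3 semaphorins, had 87.5, 65.0 and 89.6 CPM in EV-treated A, B and C, against 63.9, 42.9 and 52.8 CPM in control A, B and C. EV-treated B was close to control A, and the groups just failed to overlap. The log2 fold change was 0.60 ± 0.17 (SE, adjusted p = 0.0103). Plxna2 did not pass without EV-treated A (0.52, adjusted p = 0.0579), with library totals alone (0.24, adjusted p = 0.223) or with the sex-linked covariate (0.61, adjusted p = 0.188), and its bin with the most counts gave -0.13 (adjusted p = 0.517).

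Plxna3 (X chromosome) had 1.39, 1.54 and 2.74 CPM in EV-treated A, B and C, against 4.501, 4.44 and 5.68 CPM in control A, B and C. Each EV-treated library lay below each control library, and Plxna3, a receptor for neuropilin-bound class 3 semaphorins, fell by 1.37 ± 0.26 on the log2 scale (SE, adjusted p = 0.00114). It was -2.01 with the sex-linked covariate (adjusted p = 0.00538) and -3.01 on its bin with the most counts (adjusted p = 0.00132). Plxna4, which binds Sema6a, Sema6b and neuropilin-bound Sema3a, had 14.1, 12.4 and 17.8 CPM in EV-treated A, B and C, against 18.9, 17.6 and 12.2 CPM in control A, B and C. The groups overlapped and the test was not passed (log2 fold change -0.14 ± 0.19, SE, adjusted p = 0.543). With the sex-linked covariate the sign was the opposite (0.40, adjusted p = 0.370), and with library totals alone Plxna4 was called lower (-0.49, adjusted p = 0.0447).

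The antisense RNAs of the Plxna4 locus were rare. Plxna4os3 had 0.328 to 0.448 CPM in EV-treated and 0.180 to 0.244 CPM in control libraries (log2 fold change 0.87 ± 0.35, SE, adjusted p = 0.0489), all of it in a bin shared with a Plxna4 exon. That call was lost in 11 of 16 alternatives, among them the removal of EV-treated A (0.84, adjusted p = 0.101) or B (0.76, adjusted p = 0.116), or of control A (0.85, adjusted p = 0.127), B (0.96, adjusted p = 0.0872) or C (0.74, adjusted p = 0.135), and the sex-linked covariate (1.32, adjusted p = 0.166). Plxna4os1 had 0.578 to 1.70 CPM in EV-treated and 1.94 to 2.00 CPM in control libraries and did not pass (log2 fold change -0.81 ± 0.33, SE, adjusted p = 0.0553). Without EV-treated B it was called lower (-1.22, adjusted p = 0.00718). Plxna4os2 had 0 to 4 counts in a library and was too low to judge.

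Class B plexins bind class 4 semaphorins. Plxnb2 (chr15:89155549-89171120, GRCm38), the receptor of Sema4c, Sema4d and Sema4g, had 257, 233 and 280 CPM in EV-treated A, B and C, against 799, 670 and 758 CPM in control A, B and C. The groups were far apart, and Plxnb2 fell by 1.53 ± 0.12 on the log2 scale (SE, adjusted p = 3.60e-06), 2.89 times on average. Plxnb3, the Sema5a receptor on the X chromosome, was rare, with 0.0703 to 0.234 CPM in EV-treated and 1.01 to 1.26 CPM in control libraries, and fell by 2.97 ± 0.41 on the log2 scale (SE, adjusted p = 1.40e-04), or by 3.56 without EV-treated A (adjusted p = 1.35e-04). Plxnb1, the high-affinity Sema4d receptor, had 0.226 to 0.510 CPM in EV-treated and 0.386 to 1.33 CPM in control libraries, overlapped between the groups and did not pass (log2 fold change -1.20 ± 0.50, SE, adjusted p = 0.0568). Plxnb1 was called lower without control B (-1.53, adjusted p = 0.0163) or EV-treated B (-1.60, adjusted p = 0.0298), or with the sex-linked covariate (-2.48, adjusted p = 0.0163).

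Plxnc1, the Sema7a receptor, had 121, 102 and 134 CPM in EV-treated A, B and C, against 208, 156 and 224 CPM in control A, B and C. EV-treated C came nearest to control B, without overlap, and Plxnc1 fell by 0.72 ± 0.16 on the log2 scale (SE, adjusted p = 0.00252). So in the EV-treated libraries the ligand Sema7a was higher and its plexin was lower. Plxnd1, a receptor of Sema3e, had 594, 508 and 677 CPM in EV-treated A, B and C, against 464, 430 and 398 CPM in control A, B and C. The groups did not overlap, and the log2 fold change was 0.46 ± 0.13 (SE, adjusted p = 0.0123). Plxnd1 did not pass without EV-treated A (0.44, adjusted p = 0.0587) or EV-treated C (0.35, adjusted p = 0.0553), with library totals alone (0.10, adjusted p = 0.539) or with the sex-linked covariate (0.57, adjusted p = 0.122).

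The neuropilins moved apart. Nrp1 (chr8:128358604-128503363, GRCm38), coreceptor of Sema3a and of VEGF-A, had 41.1, 35.5 and 48.9 CPM in EV-treated A, B and C, against 274, 262 and 349 CPM in control A, B and C. No library of either group came near the other, and Nrp1 fell by 2.82 ± 0.16 on the log2 scale (SE, adjusted p = 3.70e-07), 7.05 times on average. Nrp2, coreceptor of Sema3c, Sema3f and VEGF-C, had 658, 541 and 717 CPM in EV-treated A, B and C, against 480, 417 and 488 CPM in control A, B and C. EV-treated B was only a little above control C, and the log2 fold change was 0.47 ± 0.14 (SE, adjusted p = 0.0122). Nrp2 did not pass without EV-treated A (0.42, adjusted p = 0.0649), EV-treated C (0.37, adjusted p = 0.0533) or control B (0.38, adjusted p = 0.0548), with library totals alone (0.11, adjusted p = 0.530) or with the sex-linked covariate (0.28, adjusted p = 0.418).

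**Figure D2:**
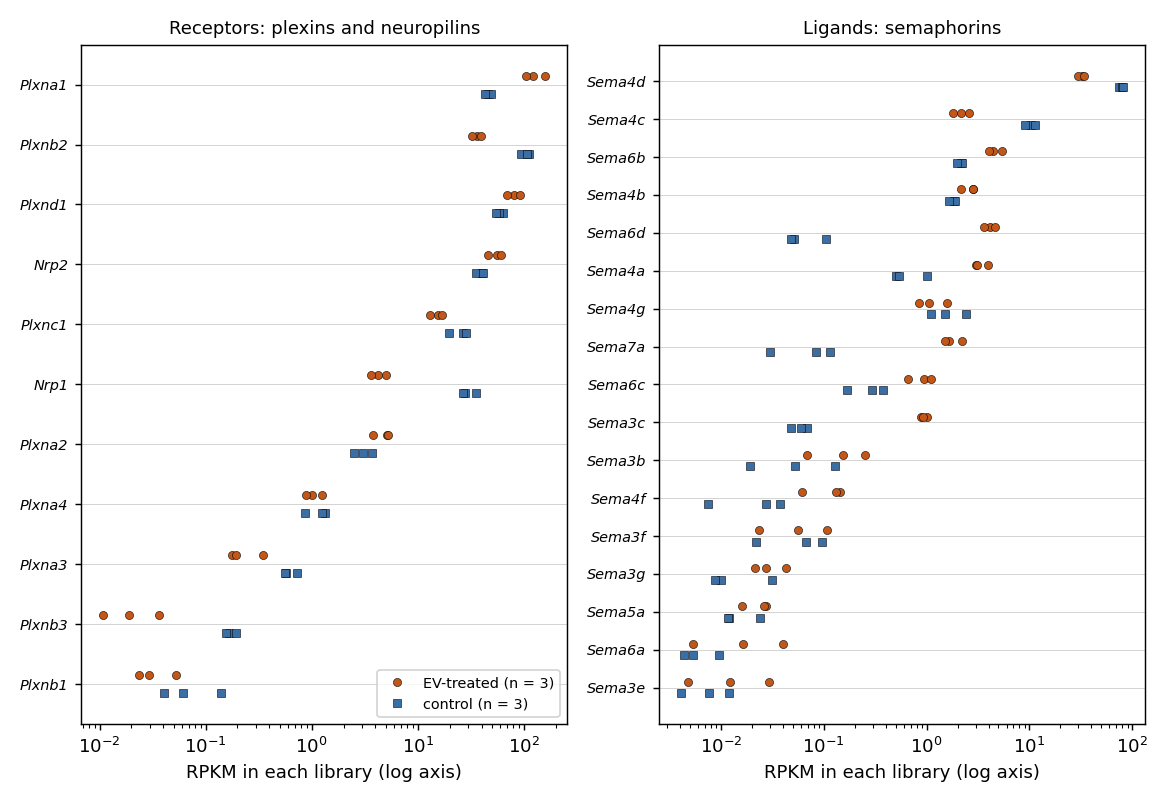
RPKM of the tested plexins and neuropilins (left) and semaphorins (right) in each library on a log axis, in order of the mean over all libraries; circles are the 3 EV-treated and squares the 3 control libraries. Nrp1, Plxnb2, Sema4c and Sema4d lie lower and Plxna1, Sema6d, Sema7a and Sema3c higher in EV-treated libraries, with no overlap.

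Levels between genes were compared per length, as RPKM (CPM per kilobase of the gene's exon bins), as a description. In EV-treated microglia the order of receptors was Plxna1 at 130 ± 27 RPKM (SD, n = 3), Plxnd1 at 81.2 ± 11.6, Nrp2 at 53.9 ± 7.5, Plxnb2 at 36.1 ± 3.2, Plxnc1 at 15.2 ± 2.0, Plxna2 at 4.70 ± 0.79 and Nrp1 at 4.28 ± 0.69 RPKM. Plxna2 and Nrp1 were close, at 5.09, 3.79 and 5.22 against 4.20, 3.63 and 4.998 RPKM in EV-treated A, B and C, with Plxna2 higher in each. In control microglia it was Plxnb2 at 104 ± 9.2 RPKM (SD, n = 3), Plxnd1 at 59.0 ± 4.5, Plxna1 at 45.8 ± 3.1, Nrp2 at 38.99 ± 3.27, Nrp1 at 30.1 ± 4.8, Plxnc1 at 25.02 ± 4.56 and Plxna2 at 3.10 ± 0.61 RPKM. Nrp1 was above Plxnc1 in each control library, at 28.0, 26.8 and 35.6 against 26.6, 19.9 and 28.6 RPKM in control A, B and C. Plxna1 was thus the most abundant plexin transcript per length in EV-treated and Plxnb2 in control microglia. The levels, shares and ratios of Plxna1 here and below take in the bins shared with Gm26811. Gm26811 itself rose by 1.31 ± 0.15 on the log2 scale (SE, adjusted p = 3.30e-05), and reads of the overlap cannot be told apart.

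The make-up of each class differed too. Plxna1 made 48.2% ± 2.1 of the summed plexin RPKM in EV-treated and 19.2% ± 2.1 in control libraries (SD, n = 3 each), and Plxnb2 made 13.6% ± 1.0 in EV-treated and 43.6% ± 1.7 in control libraries (SD, n = 3 each). The ratio of Plxna1 to Plxnb2 RPKM was 3.42, 3.24 and 4.07 in EV-treated A, B and C, against 0.408, 0.520 and 0.401 in control A, B and C. The order of these receptors was thus opposite in all libraries of the groups. The ratio of Nrp2 to Nrp1 RPKM was 13.2, 12.6 and 12.1 in EV-treated A, B and C, against 1.45, 1.32 and 1.16 in control A, B and C, so that Nrp2 far outweighed Nrp1 in EV-treated libraries and was near it in control libraries.

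Summed over the plexins, the level was 268 ± 45.0 RPKM in EV-treated and 239 ± 13.8 RPKM in control libraries (SD, n = 3 each), a difference smaller than the spread. The semaphorins summed to 54.1 ± 5.5 RPKM in EV-treated and 95.9 ± 4.8 RPKM in control libraries (SD, n = 3 each). Sema4d took 59.2% ± 1.9 of the semaphorin sum in EV-treated and 82.1% ± 1.7 in control libraries (SD, n = 3 each), while Sema6b, Sema6d, Sema4a and Sema7a together with rarer members filled a larger share in EV-treated libraries. Sema6d took 7.64% ± 0.16 in EV-treated and 0.0699% ± 0.029 in control libraries (SD, n = 3 each).

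**Figure D3:**
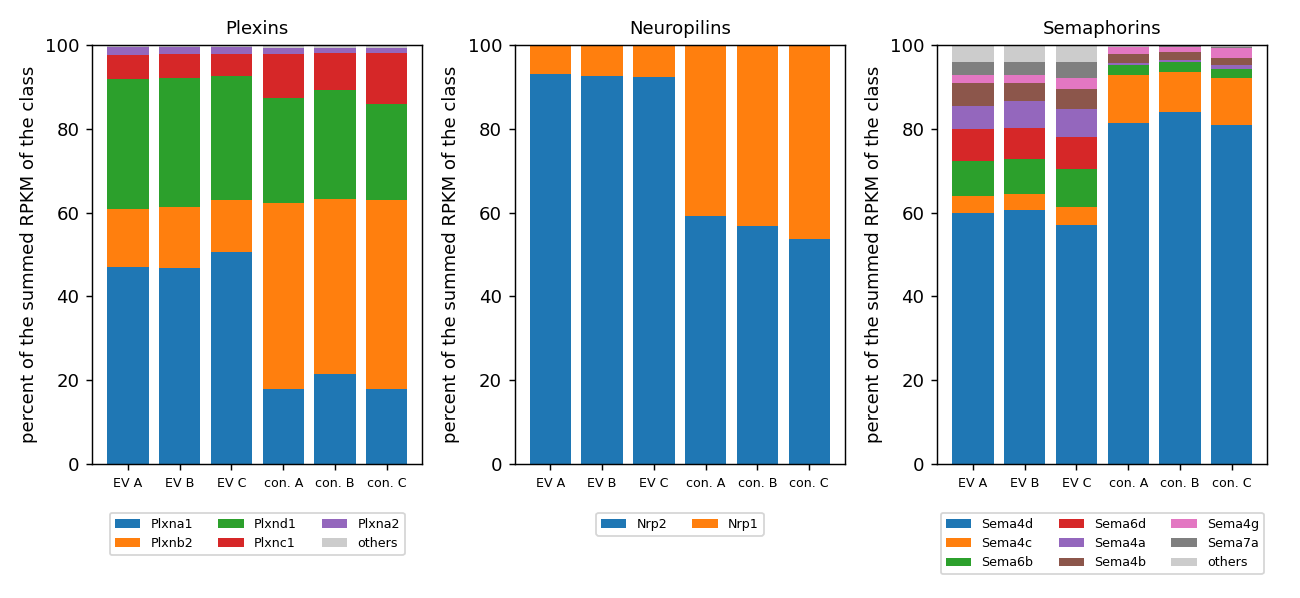
Share of each gene in the summed RPKM of its class (vertical axis, percent), for plexins, neuropilins and semaphorins, in EV-treated A, B and C (left) and control A, B and C (right). Plxna1 takes 48.2% of the plexin sum in EV-treated and 19.2% in control libraries on average, and Sema4d 59.2% of the semaphorin sum in EV-treated and 82.1% in control libraries.

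Use of exon bins within a gene was tested for the 20 members with enough bins (edgeR's diffSpliceDGE, Simes p adjusted over 12265 entries), a separate question from the level of the gene. It was called in 4 members, Plxna2, Sema4c, Sema4a and Nrp2, and not in 16, beside 21.6% of all entries tested. All 4 remained called in each of the 6 fits that left out a library. The bins named below were picked by this test on the same libraries. The second bin of each ratio was chosen after values were seen, so the ratios and their lack of overlap are a description.

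In Nrp2 the bin was 15 bases long (chr1:62786302-62786316, GRCm38, plus strand), coding in GENCODE vM21, and it lengthens the exon that precedes the alternative tails of the protein. Nrp2 is known to occur with and without short inserts at this place and with alternative membrane and intracellular tails. The transcripts below show this end of the exon and the start of the next one; capitals mark the 15 bases, and the pairs differ in the tail that follows.
Nrp2-203: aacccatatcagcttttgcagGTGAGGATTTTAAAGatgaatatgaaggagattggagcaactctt
Nrp2-204: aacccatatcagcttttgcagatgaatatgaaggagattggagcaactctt
Nrp2-201: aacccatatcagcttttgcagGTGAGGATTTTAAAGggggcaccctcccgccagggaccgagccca
Nrp2-205: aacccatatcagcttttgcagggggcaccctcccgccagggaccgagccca

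The 15-base bin had 106, 68 and 123 counts in EV-treated A, B and C, against 179, 110 and 260 counts in control A, B and C, although Nrp2 as a whole was not lower in EV-treated libraries. The 21 bases just before it in the same exon had 2100, 1556 and 2461 counts in EV-treated A, B and C, against 1664, 1318 and 2240 counts in control A, B and C. The ratio of the 15-base bin to those bases was 0.0505, 0.0437 and 0.04998 in EV-treated A, B and C, against 0.108, 0.0835 and 0.116 in control A, B and C. The 15-base bin had far fewer counts than those bases in every library. The ratio averaged 0.0481 ± 0.0038 in EV-treated and 0.102 ± 0.017 in control libraries (SD, n = 3 each). How reads over both bins were counted is not stated, so the ratio need not be the share of the longer exon. Relative to the rest of Nrp2 the bin fell by 0.72 on the log2 scale (adjusted p over bins 1.50e-04; gene adjusted p = 4.55e-04). All 22 bins of Nrp2 were in the bin test, and no bin of the alternative tails passed it. Per length, the ratio of the tail bins that end upstream to the distal tail bin was 0.311, 0.314 and 0.368 in EV-treated A, B and C, against 0.407, 0.383 and 0.438 in control A, B and C. These ratios were lower in all EV-treated libraries, without overlap. The ratio of another bin, 51 bases long, to the distal tail bin did overlap. Per length it was 3.37, 3.52 and 3.54 in EV-treated A, B and C, against 3.55, 3.12 and 3.46 in control A, B and C. These ratios between tail bins were not themselves tested.

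In Plxna2 (chr1:194618218-194816869, GRCm38, plus strand) the difference lay in the 3' end. The last bin, from 194814228 to 194816869, belongs to the 3' UTR of the protein-coding Plxna2-201, and had 255, 161 and 377 counts in EV-treated A, B and C, against 855, 740 and 1260 counts in control A, B and C. The bin before it, from 194812066 to 194814227, holds the end of the coding sequence and the start of that UTR, and had 655, 434 and 707 counts in EV-treated A, B and C, against 866, 623 and 1027 counts in control A, B and C. The ratio of the last bin to the one before it was 0.389, 0.371 and 0.533 in EV-treated A, B and C, against 0.987, 1.19 and 1.23 in control A, B and C. Relative to the rest of Plxna2, the last bin differed by -1.503 and the bin before it by -0.56 on the log2 scale (adjusted p over bins 8.07e-16 and 0.00464; gene adjusted p = 3.24e-15). The rise of Plxna2 as a gene therefore came from its other bins, and its most counted bin did not share it.

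In Sema4c the difference lay at the 5' end. The bins named by the test lie in the upstream first exon, a 5' UTR exon. The bin from 36558251 to 36558349 had 0 counts in all EV-treated libraries, against 21, 18 and 42 counts in control A, B and C. The bin from 36558016 to 36558250 had 3, 5 and 17 counts in EV-treated A, B and C, against 181, 132 and 299 counts in control A, B and C. Its ratio to the most counted bin of the gene averaged 0.0251 ± 0.019 in EV-treated and 0.104 ± 0.012 in control libraries (SD, n = 3 each) without overlap. Relative to the rest of Sema4c the bins differed by -3.72 and -1.42 on the log2 scale (adjusted p over bins 0.00133 and 2.19e-06; gene adjusted p = 6.20e-06). Both overlap exons of D430040D24Rik on the opposite strand, which fell by 4.29 ± 0.52 on the log2 scale (SE, adjusted p = 5.61e-05), and reads of the overlap cannot be told apart. On bins free of other genes, Sema4c as a gene fell by 2.19 on the log2 scale (adjusted p = 9.43e-07).

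In Sema4a, a bin of 489 bases (chr3:88448142-88448630, GRCm38, minus strand) that GENCODE places only in Sema4a-206, a transcript with a retained intron, had 12, 8 and 6 counts in EV-treated A, B and C, against 14, 16 and 33 counts in control A, B and C. The adjoining exon bin had 104, 72 and 106 counts in EV-treated A, B and C, against 13, 14 and 52 counts in control A, B and C. The exon bin thus had more counts in every EV-treated library and the intron bin had not, and the ratio of the intron bin to the exon bin averaged 0.0944 ± 0.033 in EV-treated and 0.951 ± 0.28 in control libraries (SD, n = 3 each). Relative to the rest of Sema4a, the bin fell by 2.31 on the log2 scale (adjusted p over bins 3.50e-05; gene adjusted p = 1.21e-04). With a stricter filter on bins the Sema4a gene was not called, since that filter removes low bins.

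**Figure D4:**
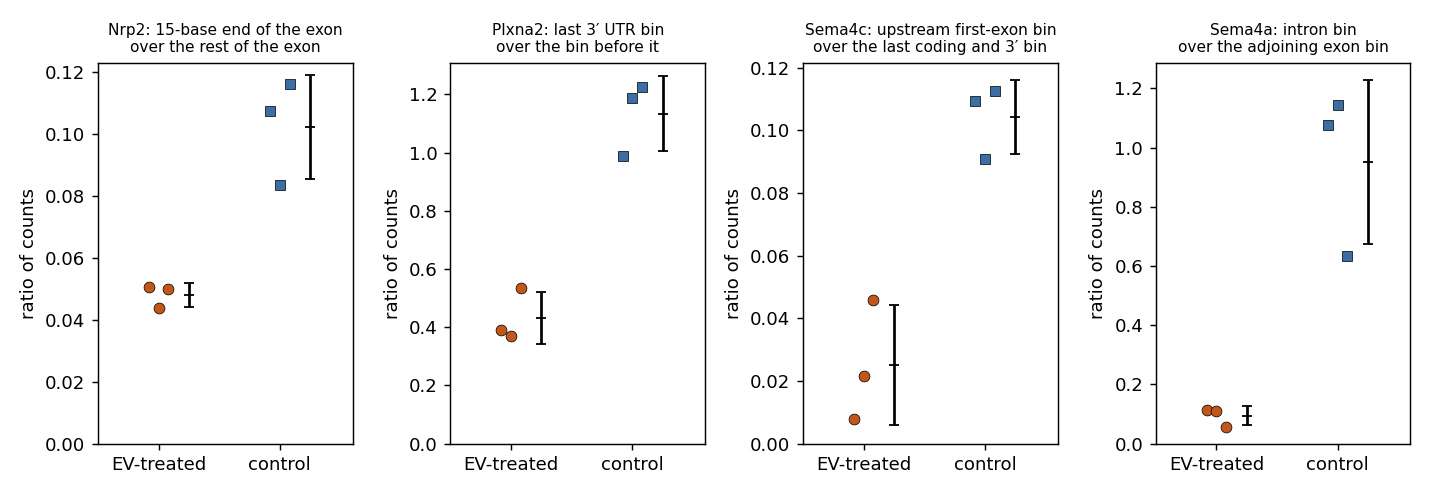
Ratio of the counts of a named exon bin to a second bin of the same gene (vertical axis, starting at 0), in EV-treated (circles) and control (squares) libraries, with the group mean and SD as bars (n = 3 each). All 4 ratios lie lower in the EV-treated libraries, but the bins were named by the test on these same libraries. The second bins were chosen after values were seen, so the ratios are a description. For the 15-base bin of Nrp2 the ratio averages 0.0481 in EV-treated and 0.102 in control libraries.

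Promoter windows from RefSeq (GRCm38.p6) were at hand for 26 of the 34 members. The windows of Sema7a and of Nrp1 are shown as those of a steep rise and a deep fall. The Sema7a entry begins at its RefSeq start, 57940112. The Nrp1 entry begins at 128358604, upstream of its RefSeq start at 128359073. Where the counts of these genes begin is not given here. The window of the upstream start of Sema4c is shown because the bins named by the test lie just downstream of that start. The window ends within the first of these bins, and the second lies outside it. Reads in these bins cannot be told apart from those of D430040D24Rik, and the first bin had 0 counts in all EV-treated libraries. The windows were searched on both strands for the NF-kB consensus and for an AP-1 site, spelled TGANTCA. The search also took in the GC box, spelled GGGCGG, and capitals mark the matches, none of which overlap.
Sema7a chr9:57939862-57940161, plus strand: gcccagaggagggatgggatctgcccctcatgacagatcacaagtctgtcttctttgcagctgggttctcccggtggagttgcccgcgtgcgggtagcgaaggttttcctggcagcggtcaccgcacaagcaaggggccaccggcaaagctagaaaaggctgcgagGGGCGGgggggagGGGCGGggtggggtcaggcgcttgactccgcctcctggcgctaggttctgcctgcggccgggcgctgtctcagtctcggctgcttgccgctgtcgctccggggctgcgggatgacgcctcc
Nrp1 chr8:128358823-128359122, plus strand: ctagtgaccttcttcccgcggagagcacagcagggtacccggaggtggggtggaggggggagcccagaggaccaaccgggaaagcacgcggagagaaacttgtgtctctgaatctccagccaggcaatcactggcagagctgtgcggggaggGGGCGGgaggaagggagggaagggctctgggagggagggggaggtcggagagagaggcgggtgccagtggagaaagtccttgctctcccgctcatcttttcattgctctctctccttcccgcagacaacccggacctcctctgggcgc
Sema4c chr1:36558332-36558631, minus strand: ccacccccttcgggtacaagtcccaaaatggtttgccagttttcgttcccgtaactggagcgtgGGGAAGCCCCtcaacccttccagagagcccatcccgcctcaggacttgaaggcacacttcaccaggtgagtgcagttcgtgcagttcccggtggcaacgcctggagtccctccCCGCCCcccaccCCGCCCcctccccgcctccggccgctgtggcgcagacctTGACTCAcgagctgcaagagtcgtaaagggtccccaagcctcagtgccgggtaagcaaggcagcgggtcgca

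Sema7a held a pair of GC boxes and Nrp1 a single one, as 35.7% of all 32851 windows hold at least 1. The Sema4c window held an AP-1 site that begins 22 bases before the start, an NF-kB match and a pair of GC boxes. An AP-1 site was found in 7.81% and an NF-kB match in 4.51% of all windows, so these matches are a description of the sequence.

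Genes that work with the family were read from lists fixed together with the members. Of 24 tested coreceptors and other ligands or receptors, 10 were higher and 11 lower (median log2 fold change -0.26), beside 33% higher and 33.5% lower over all tested entries. That background holds for each list below, and the counts of the lists are a description. Vegfa and Pgf, growth factors of the VEGF family that compete for neuropilins, had 578 ± 75 and 100 ± 22 CPM in EV-treated and 3.10 ± 0.11 and 0.0799 ± 0.043 CPM in control libraries (SD, n = 3 each). Vegfa rose by 7.54 ± 0.16 and Pgf by 10.33 ± 0.32 on the log2 scale (SE, adjusted p = 1.86e-09 and 7.92e-09), with Nrp1, which binds both, on the lower side. Pgf was 12.08 with the sex-linked covariate (adjusted p = 8.76e-07) and 9.62 on its bin with the most counts (adjusted p = 6.89e-10). Met, the HGF receptor that class B plexins can engage, had 369 ± 23 CPM in EV-treated and 13.2 ± 3.4 CPM in control libraries (SD, n = 3 each; log2 fold change 4.81 ± 0.21, SE, adjusted p = 6.43e-08).

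On the lower side of that list stood Trem2, partner of Plxna1 in Sema6d signalling, Plxdc1 and L1cam. Trem2 had 107, 138 and 101 CPM in EV-treated A, B and C, against 1512, 1261 and 1252 CPM in control A, B and C. The groups were far apart in Trem2 (log2 fold change -3.54 ± 0.17, SE, adjusted p = 9.78e-08), while Sema6d and Plxna1 were higher. Plxdc1, a plexin-domain protein that is not a semaphorin receptor, had 6.13 ± 0.88 CPM in EV-treated and 94.8 ± 15.01 CPM in control libraries (SD, n = 3 each). L1cam, a cell adhesion molecule that joins Nrp1 in Sema3a receptors, is counted in an entry joined with Arhgap4 and Naa10, and that entry had 64.8 ± 6.9 CPM in EV-treated and 189 ± 21 CPM in control libraries (SD, n = 3 each; log2 fold change -1.54 ± 0.13, SE, adjusted p = 3.86e-06).

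Of 40 tested genes that signal from plexins and neuropilins inside the cell, 18 were higher and 15 lower (median log2 fold change 0.24). Rnd1, a GTPase that binds class A and B plexins, had 9.70 ± 1.33 CPM in EV-treated and 0.281 ± 0.042 CPM in control libraries (SD, n = 3 each). Rapgef2, an activator of Rap GTPases, rose by 3.92 ± 0.14 and the tyrosine kinase Syk, which acts below Tyrobp, by 2.26 ± 0.13 on the log2 scale (SE, adjusted p = 2.23e-08 and 3.10e-07). Mical1, a flavoprotein that takes apart actin filaments below class A plexins, had 17.4 ± 1.5 CPM in EV-treated and 154 ± 3.7 CPM in control libraries (SD, n = 3 each). Mical1, the Src-family kinase Fyn and the exchange factor Farp1 fell, with log2 fold changes of -3.14 ± 0.11, -2.30 ± 0.10 and -1.89 ± 0.12 (SE, adjusted p = 1.63e-08, 8.47e-08 and 6.51e-07).

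Of 7 tested proteases that cut semaphorins or neuropilins, 2 were higher and 2 lower (median log2 fold change -0.20). Furin, which cleaves class 3 semaphorins, had 674 ± 52 CPM in EV-treated and 160 ± 34 CPM in control libraries (SD, n = 3 each), and Mmp14, which sheds Sema4d, had 356 ± 17 CPM in EV-treated and 76.2 ± 24.5 CPM in control libraries (SD, n = 3 each). Both rose (log2 fold change 2.07 ± 0.16 for Furin and 2.22 ± 0.21 for Mmp14, SE, adjusted p = 2.81e-06 and 9.05e-06). Adam10 and Pcsk7 fell, with log2 fold changes of -0.73 ± 0.12 and -0.25 ± 0.10 (SE, adjusted p = 3.42e-04 and 0.0453), and the count of lower proteases was 1 to 5 over the alternatives. With the sex-linked covariate Mmp14 was 1.48 (adjusted p = 0.00183) and Pcsk7 did not pass (-0.099, adjusted p = 0.684). Pcsk7 did not pass without EV-treated A (adjusted p = 0.0529), B (adjusted p = 0.0649) or C (adjusted p = 0.102) or without control A (adjusted p = 0.124) or B (adjusted p = 0.0907).

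Of 14 tested ephrins and Eph receptors, 6 were higher and 2 lower (median log2 fold change 0.59). Epha4 had 33.5 ± 6.3 CPM in EV-treated and 0.339 ± 0.092 CPM in control libraries, and Efnb2, one of its ligands, had 11.7 ± 1.6 CPM in EV-treated and 0.212 ± 0.062 CPM in control libraries (SD, n = 3 each). Epha4, Efnb2 and Efna5 rose by 6.59 ± 0.24, 5.75 ± 0.24 and 4.12 ± 0.54 on the log2 scale (SE, adjusted p = 2.11e-08, 4.60e-08 and 9.42e-05). Efnb1 and Efna4 fell, with log2 fold changes of -1.13 ± 0.18 and -2.28 ± 0.71 (SE, adjusted p = 3.02e-04 and 0.0168). Efna4 was rare, with 0.0343 ± 0.039 CPM in EV-treated and 0.165 ± 0.043 CPM in control libraries (SD, n = 3 each). Efna4 was -3.70 without EV-treated B (adjusted p = 0.00196) and did not pass without EV-treated A (-1.84, adjusted p = 0.0560), EV-treated C (-1.95, adjusted p = 0.0534) or control C (-2.12, adjusted p = 0.0520). With the sex-linked covariate Efna4 did not pass (-2.59, adjusted p = 0.09997) and Epha4 was 5.86 (adjusted p = 6.87e-06).

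Of 10 tested netrins, Slits, repulsive guidance molecules and receptors, 4 were higher and 3 lower (median log2 fold change 0.16). Ntn1 and its receptor Unc5b had 26.8 ± 3.1 and 21.5 ± 4.8 CPM in EV-treated and 2.32 ± 0.15 and 0.984 ± 0.17 CPM in control libraries (SD, n = 3 each), and Robo2, a Slit receptor, 2.32 ± 0.32 CPM in EV-treated and 0.0121 ± 0.0059 CPM in control libraries. Ntn1, Unc5b and Robo2 rose by 3.53 ± 0.14, 4.44 ± 0.22 and 7.57 ± 0.38 on the log2 scale (SE, adjusted p = 3.05e-08, 1.27e-07 and 1.41e-07). Rgmb, Rgma and their receptor Neo1 fell, with log2 fold changes of -0.70 ± 0.13, -3.88 ± 0.95 and -0.45 ± 0.14 (SE, adjusted p = 8.12e-04, 0.00488 and 0.0186). Rgma was rare and uneven, with 0.00807, 0.0176 and 0.0312 CPM in EV-treated A, B and C, against 0.653, 0.165 and 0.0743 CPM in control A, B and C. Rgma was -2.59 without control A (adjusted p = 0.0213) and -0.68 with the sex-linked covariate (adjusted p = 0.699), and Neo1 did not pass without EV-treated A (-0.47, adjusted p = 0.0517), EV-treated B (-0.33, adjusted p = 0.0543) or control A (-0.42, adjusted p = 0.0566), nor with the sex-linked covariate (-0.68, adjusted p = 0.0685). Robo2 was 8.81 with that covariate (adjusted p = 6.10e-05).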

How the data were processed

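Per the file headers, the authors deposited raw counts for each exon bin of each of 6 polyA-selected libraries, with position, length and strand of the bin. Trimmomatic 0.36, STAR, Subread and DESeq2 with GRCm38 are listed in the submitters' processing notes, and their settings, the annotation and the strand setting are not stated here. Totals per library were 109744701 to 162544804 counts.

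Bins were summed per entry, and 49298 of 49644 identifiers had a symbol. Entries were kept by filterByExpr and compared with edgeR 4.0.16 (TMM, glmQLFit, glmQLFTest, R 4.3.3), 2-sided, adjusted by Benjamini-Hochberg over the 16605 entries tested, at a threshold of 0.05. SE is the log2 fold change over the square root of F. Bin usage was tested with diffSpliceDGE. The gene test and the bin test were run on simulated data. Alternatives used RLE, upper-quartile or total scaling, other filters, DESeq2 1.42.0, limma-voom (limma 3.58.1), a block for the replicate letter, removal of each library, the Y-to-Xist ratio as a covariate, the most counted bin, and single-gene entries; bins free of other genes' exons were added after seeing the data.

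The members and lists were chosen with earlier results of these data known. Every member is named: those with a mean log2 CPM of at least 1 with all libraries, the rest by range; at most 3 higher and 3 lower genes of a list and 2 bins of a gene, by smallest p. The second bin in each ratio of bins was chosen after values were seen. Promoter windows are RefSeq's and transcripts GENCODE's (release M21). Python 3.11.15 with pandas 2.3.3 and matplotlib 3.10.9 was used.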

Additional observations from a re-analysis of the deposited data

How the results depend on the processing

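The count of members called was 13 higher and 7 lower. With library totals alone it was 8 higher and 11 lower, a scaling that puts the median of all entries at -0.38 in place of -0.02 (log2; -0.14 with upper quartiles). With the sex-linked covariate 6 members were higher, and 7271 entries were called in all, against 11037. Leaving out a library gave 9 to 14 higher members, 7 to 9 lower members, 10190 to 10918 entries called and 4 to 5 members called in bin usage. The labels do not tell if the letters shared by the groups pair the samples, and pairing was not tested. The correlation of deviations was 0.035 for A, 0.167 for B and 0.210 for C, against -0.199 to 0.034 between different letters. With the replicate block, 13 members were higher, 9 lower and 5 called in bin usage, with 11609 entries called. 6 of the higher and all 7 lower members kept their call in every alternative that could be fitted. The sign was the opposite for Plxna2 on the most counted bin (-0.13), and with the sex-linked covariate for Sema3g (-0.70), Sema5a (-0.30), Sema3b (-0.63), Sema3e (-0.79) and Plxna4 (0.40). Sema3f, near 0, was positive with RLE scaling (0.032), DESeq2 (0.0081), the block (0.011) and without control B (0.025), control C (0.475), EV-treated A (0.057) or EV-treated B (0.382); over the removals it ran from -0.64 to 0.475. With the length of counted bins alone, RPKM moved beyond the SD mainly for rare members, and for Sema4d to 38.6 in EV-treated and 95.1 in control libraries. Causes of these shifts were not tested. Depth limits Sema3a, Sema3d, Sema5b and Plxna4os2.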
